A study of Mus musculus with 36 samples.

Results

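The step from embryonic day 12.5 (E12.5) to E13.5 was examined in whole mouse hearts. Its members are 6 of the 36 arrays of the series, 3 for each of these stages, and they were taken by their stage label alone. All 12 stages of the series are hearts of OF1 mice, an outbred stock, for which the labels name no treatment and no genetic change. They run daily from E10.5 to E19.5 and end with young adults of 10 weeks and old adults, for which the labels and the methods give different ages. The 3 arrays of E12.5, and likewise those of E13.5, carry the labels female, male and mixed, and they are called by these labels below. The methods describe them as the heart of a female pup, the heart of a male pup and a mixture of hearts of both sexes. Values are always given in that order. Each value is a log2 intensity, so a difference of 1 corresponds to a 2-fold difference in intensity, and levels are compared only between arrays for the same probe set.

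At this age the heart already has its chambers, and the septum between the ventricles is closing. The epicardium, a mesothelial sheet that grows over the heart, sends cells into the muscle wall, where they become fibroblasts and mural cells. Endothelial cells spread through the wall as the coronary plexus. Blood is also changing: primitive red cells from the yolk sac, which carry embryonic globins, are gradually joined by definitive red cells from the fetal liver. In the muscle cells the contractile and calcium-handling machinery is built up step by step.

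The tissue label was checked against marker genes. The muscle genes Myh7, Tnnt2, Myl2 and Myl7 lay between 11.4 and 13.6 in all 6 arrays. Markers of liver, lung, skeletal muscle and thymus (Alb, Afp, Ttr, Sftpc, Nkx2-1, Myod1, Myog, Myh3 and Foxn1) lay between 2.67 and 4.62, close to the background of the array. The labels' protocol for RNA mentions liver, whereas their tissue field and the methods give heart. All 3 arrays of E12.5, including those labelled female and male, held both Xist (10.2 to 10.4), the RNA of the silenced X chromosome, and the Y-linked Eif2s3y (6.19 to 6.72). At E13.5 the array labelled female had Xist at 11.1 and Eif2s3y at 2.15, and the array labelled male had Xist at 2.00 and Eif2s3y at 8.30. The sex labels of E12.5 were therefore used only as names.

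Measures of array quality moved together with the stage. The hybridization controls, transcripts added in fixed amounts before hybridization, read 10.5, 10.0 and 10.2 at E12.5 and 10.6, 10.7 and 11.3 at E13.5. The difference between the 3′ and 5′ probe sets of Gapdh, which grows when RNA or its copies are shorter, was 4.37, 2.93 and 3.22 at E12.5 and 4.66, 4.79 and 4.65 at E13.5. The E12.5 male array and the E13.5 mixed array stood at opposite ends for the hybridization controls. Neither measure overlapped between the stages.

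**Figure D1:**
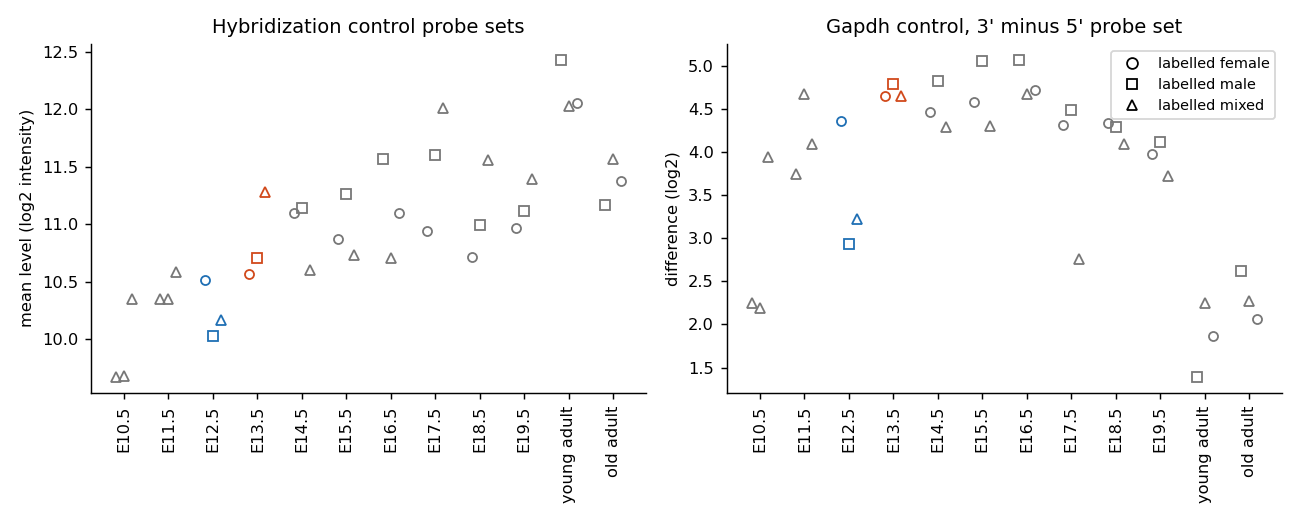
Quality measures of all 36 arrays by stage. The left panel plots the mean log2 intensity of the hybridization controls and the right panel the log2 difference between the 3′ and 5′ Gapdh probe sets; each symbol is 1 array, its shape gives the sex label, and E12.5 (blue) and E13.5 (orange) are coloured. All 3 E13.5 arrays lie above all 3 E12.5 arrays in both panels.

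The question was which genes differ between hearts 1 day apart. Of 11317 genes tested, 245 differed at an adjusted p under 0.05, or 2.16%. Of these, 133 were higher at E13.5, or 1.18% of all genes tested, and 112 were lower, or 0.99%. The higher genes had a median difference of 0.84 on the log2 scale, and 36 of them exceeded a 2-fold difference. The lower genes had a median difference of -1.02, and 62 of them exceeded 2-fold. Over all genes tested the median difference was -0.02, with 5442 positive and 5875 negative differences. Calls and signs in the gene lists below are to be read against these shares. Arrays of the stages did not overlap for any of the 245, against 43.9% of all genes tested (19.1% higher and 24.9% lower at E13.5). None passed the threshold the study's methods name, an adjusted p under 1e-05 together with a log2 difference over 2, and 2761 genes had an unadjusted p under 0.05. One further probe set of the embryonic globin Hbb-bh1 did pass that threshold (-2.87, adjusted p = 9.36e-06). Among the called genes, 111 of the higher and 111 of the lower are protein-coding in RefSeq.

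The number of calls depended strongly on single arrays and on the quality measures. It was 353 without the E12.5 female array, 28 without the E12.5 male array and 30 without the E12.5 mixed array. It was 88 without the E13.5 female array, 88 without the E13.5 male array and 26 without the E13.5 mixed array. Among the 112 lower genes, the E12.5 male array was the highest of the 6 for 88 and the E13.5 mixed array the lowest for 92. Among the 133 higher genes, the E13.5 mixed array was the highest for 80 and the E12.5 male array the lowest for 72. With the hybridization controls as a covariate 66 genes were called, 49 of them among the 245, and with the 3′ to 5′ difference as a covariate 13 were called, all among the 245. All 245 kept their sign in each of these fits. In the fits without an array this was bound to hold, since the stages do not overlap for these genes.

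**Figure D2:**
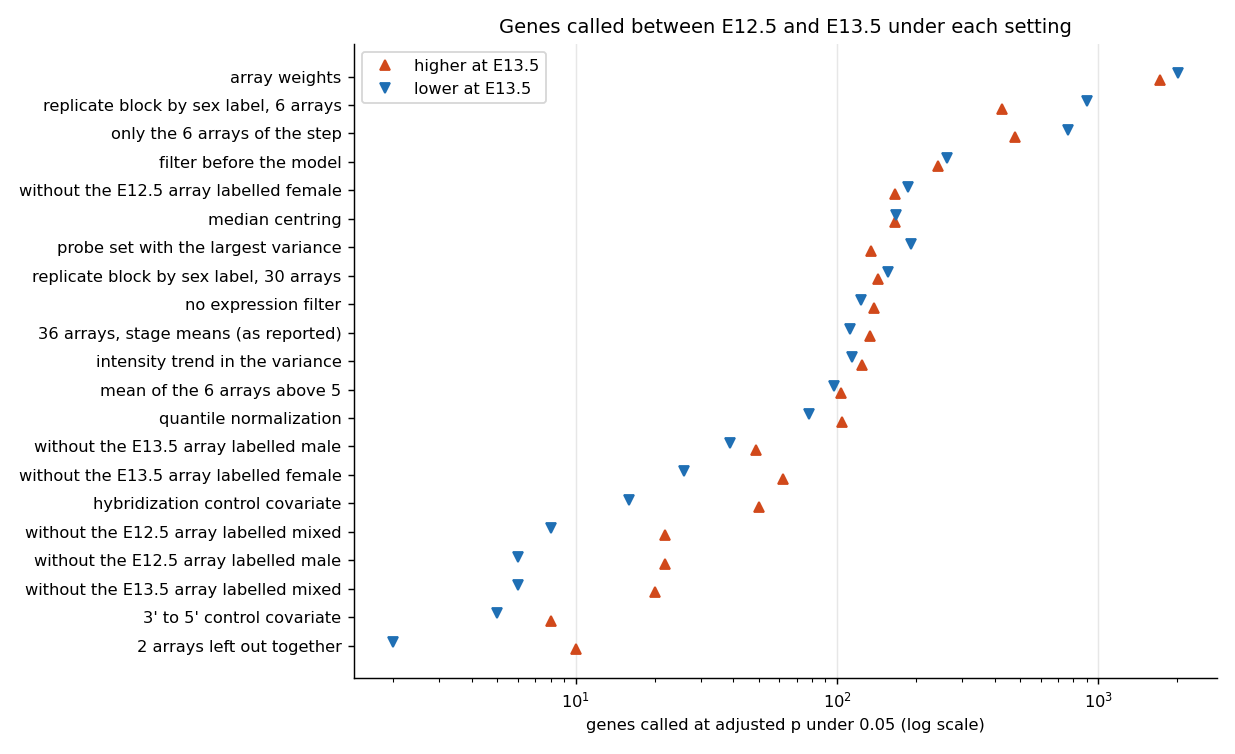
Number of genes called between E12.5 and E13.5 under each setting, on a log axis. Upward triangles are genes higher at E13.5 and downward triangles genes lower at E13.5; the reported setting has 133 and 112. The count ranges from 12 genes, with the E12.5 male and E13.5 mixed arrays left out together, to 3739, with estimated array weights.

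A set of 20 genes was called in all 6 fits that leave out 1 array and with the hybridization covariate. The 15 higher genes among them include Fabp4, Myom2, Dpt, Aplnr, Fmo2, D130051D11Rik, F13a1, Asb11, Thbs2, 4632404M16Rik, Col6a1, Nrbp2, Vldlr and Gas6. The 5 lower genes are Hbb-bh1, Apela, Fndc3c1, Bex2 and Itga4. With the 3′ to 5′ covariate, 11 of the 20 were called: Fabp4, Myom2, Dpt, Aplnr, Fmo2, D130051D11Rik, F13a1, 4632404M16Rik, Hbb-bh1, Apela and Bex2. Of the 55 called genes that the naming rule picks, 21 were called with the hybridization covariate. Beside those of the 20 above they were Mfsd13a, Ltbp2, Cd24a, Hba-x, Hapln1, Ogn, Krt8, Sox17, Casq2 and Wnt4. With the 3′ to 5′ covariate 10 of the 55 were called, among them Penk and Krt8, and the rest of the 55 lost their calls.

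**Figure D3:**
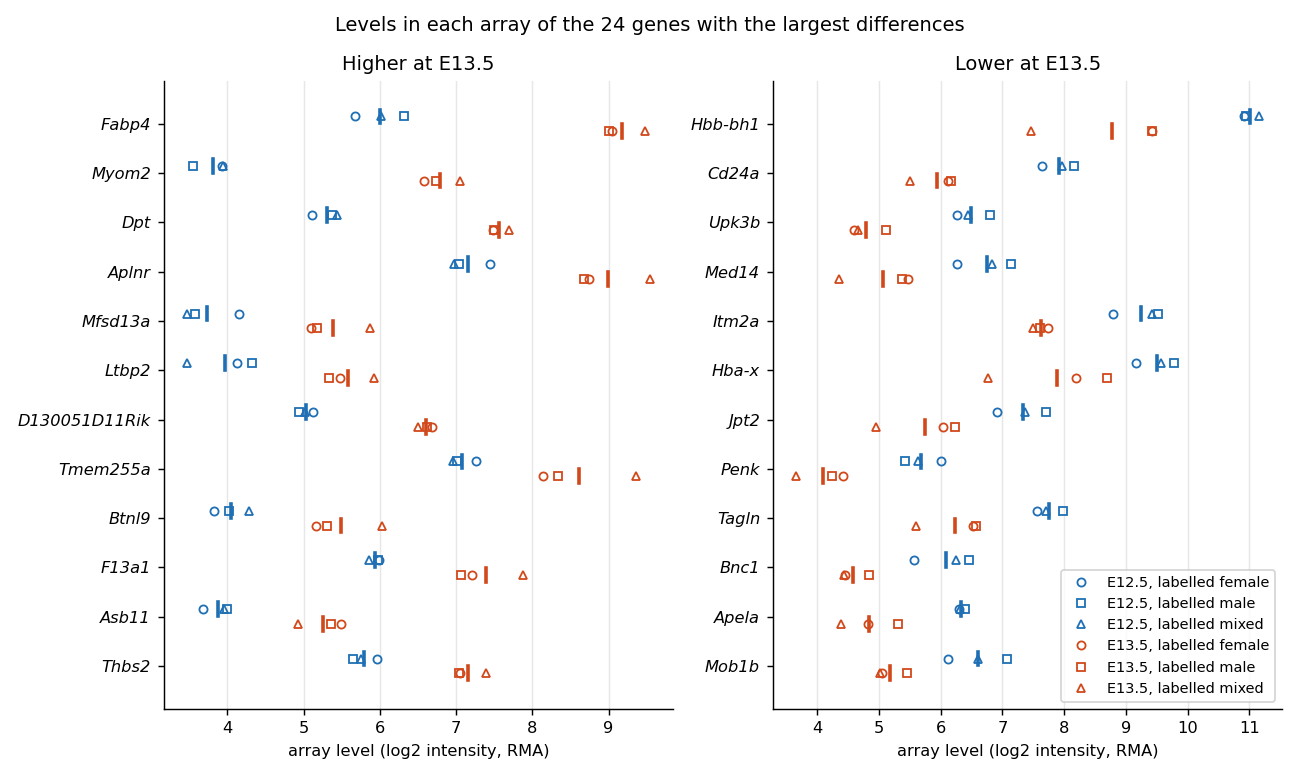
Levels (log2 intensity) in each of the 6 arrays for the 12 genes most raised and the 12 most lowered at E13.5 among called genes whose mean was over 5 at E12.5 or E13.5, whichever was higher. Blue marks E12.5 and orange E13.5, the symbol shape gives the label, and the vertical bar is the stage mean of 3 arrays. No gene has overlapping stages, and the E13.5 mixed array (orange triangle) is the outermost for most genes.

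Vessel genes held the largest rise. Fabp4, a fatty acid-binding protein of capillary endothelium and fat cells, read 5.68, 6.31 and 6.01 at E12.5 and 9.05, 9.0 and 9.47 at E13.5. This was a 9.03-fold rise (log2 3.17 ± 0.42 SE, adjusted p = 0.000121), and the lowest E13.5 array lay far above the highest E12.5 array. A second well-measured Fabp4 probe set gave 3.29, and the dim ones gave 0.75 and 0.24. Aplnr, the apelin receptor of endothelial cells, read 7.45, 7.05 and 6.98, then 8.74, 8.68 and 9.54, a 3.56-fold rise (1.83 ± 0.23, adjusted p = 8.85e-05). Without the E13.5 mixed array, where Aplnr was highest, the difference was 1.56 (adjusted p = 0.00224). A dimmer Aplnr probe set gave 0.45 and did not pass the test (adjusted p = 0.346).

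Of the ligands of Aplnr, 1 fell. Apela, which encodes the small peptide ligand ELABELA, read 6.30, 6.40 and 6.31 at E12.5 and 4.82, 5.31 and 4.39 at E13.5. It fell by 1.50 ± 0.23 on the log2 scale (adjusted p = 0.000855) and the E12.5 arrays lay close together. Apln, the gene of the other ligand apelin, read 5.31, 5.18 and 5.47, then 5.55, 5.59 and 5.59, a difference of 0.26 ± 0.18 that did not pass the test (adjusted p = 0.551).

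In the list of endothelial and coronary vessel genes, 34 were tested, 4 rose, none fell and the median difference was 0.05. The other members that rose were Sox17, a transcription factor of arterial endothelium (1.14 ± 0.23, adjusted p = 0.0117), and Robo4, an endothelial guidance receptor (0.99 ± 0.19, adjusted p = 0.00734). Sox17 read 5.09, 4.89 and 4.98, then 6.10, 6.06 and 6.22, although its other probe set differed by 0.04. Robo4 read 4.22, 4.21 and 3.79, then 4.96, 4.98 and 5.26. General endothelial genes did not pass the test: Kdr, a VEGF receptor, differed by 0.04, and Cdh5, the endothelial cadherin, by -0.08. The lowest values of the list were Emcn (-0.69), Npr3 (-0.67) and Tek (-0.67). As these are whole hearts, more cells of a type and more RNA per cell cannot be told apart, here and below.

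Genes outside the lists, chosen after their values were seen, included several known from vessels. Btnl9, a butyrophilin-like gene, read 3.83, 4.02 and 4.28, then 5.16, 5.30 and 6.03 (1.45 ± 0.36, adjusted p = 0.0376), a call lost whichever array was left out. Aoc3, an amine oxidase of vessels, rose by 1.25, Rgcc, a regulator of the cell cycle, by 1.34 and Ushbp1 by 1.04. Cav1, the coat protein of caveolae, rose by 0.95, the transcription factor Fli1 by 0.69 and Fgd5, an endothelial exchange factor, by 0.64. Tcf15, a transcription factor of heart capillaries, rose by 0.72 (adjusted p = 0.0319). None of these genes was called with the 3′ to 5′ covariate or in all 6 fits that leave out 1 array. All are genes that rose, whereas the list of vessel genes above had a median of 0.05.

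In heart muscle the main change lay in Myom2. It encodes myomesin 2, a protein of the M-band that cross-links thick filaments. The level was 3.93, 3.56 and 3.94 at E12.5 and 6.58, 6.73 and 7.05 at E13.5, a 7.89-fold rise (2.98 ± 0.35, adjusted p = 2.3e-05). The E12.5 values are near background, so the fold is approximate. Its other probe sets gave 0.90, 0.68 and 0.08, none of which passed the test. The 1 at 0.90 was brighter than the reported probe set at E12.5 (4.74, 4.16 and 4.54). At E13.5 it was dimmer (5.25, 5.28 and 5.60).

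Myom2 was the only called gene among 35 sarcomere genes tested, whose median difference was -0.07. The main motor and filament genes differed little: Myh7, the slow myosin heavy chain, by 0.07, Tnnt2, cardiac troponin T, by 0.04, and Ttn, titin, by 0.15. Among the 35, 17 had positive and 18 negative differences. The lowest value, that of Acta1, did not pass the test. Acta1, skeletal actin, read 8.90, 9.74 and 9.60, then 8.22, 8.17 and 7.16 (-1.56 ± 0.51, adjusted p = 0.112), and Myl7, the atrial light chain, differed by -0.83 (adjusted p = 0.416).

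Several genes of muscle membranes and calcium stores rose. Casq2, calsequestrin of the sarcoplasmic reticulum, read 8.14, 8.27 and 8.28, then 9.27, 9.20 and 9.01 (0.93 ± 0.22, adjusted p = 0.0292). Trdn, triadin, which anchors calsequestrin to the release channel, rose by 0.82 ± 0.19 (adjusted p = 0.0317), while its other probe sets gave between 0.11 and 1.02 and the hybridization covariate left 0.49 (adjusted p = 0.253). These were the 2 called genes of 24 tested for calcium handling (median -0.02); the release channel Ryr2 differed by -0.05 and the pump Atp2a2 by -0.42, neither past the test. Among 28 ion channel and gap junction genes 2 rose (median 0.14). Cacna1g, a T-type calcium channel, read 5.01, 5.24 and 5.13, then 5.94, 5.86 and 6.22 (0.88 ± 0.22), and Kcna4, a potassium channel of the transient outward current, rose by 0.79 ± 0.20. The calls of Casq2 and Cacna1g were lost with any 1 array left out, those of Trdn and Kcna4 in 5 of the 6 fits.

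Asb11, an adaptor of ubiquitin ligases found in muscle, was among the most stable calls. It read 3.68, 4.0 and 3.95, then 5.50, 5.36 and 4.92, a 2.61-fold rise (1.38 ± 0.23, adjusted p = 0.00277), and here the E13.5 mixed array was the lowest of its stage. Further muscle genes, chosen after their values were seen, were Rnf207, a ring finger gene of heart (0.85, adjusted p = 0.00734), Nrap, an anchoring protein of growing myofibrils (0.91), Cmya5 (0.83) and the small heat shock gene Hspb6 (1.08). None of these further genes was called with the 3′ to 5′ covariate or in all 6 fits that leave out 1 array. Vldlr, a receptor for lipoproteins, read 9.54, 9.44 and 9.45, then 10.52, 10.31 and 10.46, a rise of 0.96 ± 0.17 (adjusted p = 0.00566).

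None of 24 atrial and ventricular chamber genes was called (median -0.14). Nppa, the gene of atrial natriuretic factor, read 11.42, 11.80 and 11.72, then 11.71, 11.97 and 9.51, so that the E13.5 mixed array alone carried the difference (-0.58, adjusted p = 0.651). Cited1, a cofactor of trabecular muscle, read 7.61, 8.14 and 8.17, then 7.03, 7.32 and 5.24 (-1.44, adjusted p = 0.213), with the same array lowest. Among 34 cardiac transcription factor genes (median -0.05) Gata5 fell by 0.75 ± 0.16 on the log2 scale (adjusted p = 0.0212) and Gata4 by 0.55 ± 0.14 (adjusted p = 0.0415). Gata5 read 6.34, 6.07 and 6.25, then 5.52, 5.81 and 5.07. The call of Gata4 was lost after quantile normalization (-0.46, adjusted p = 0.142). Without the E13.5 mixed array neither Gata5 (adjusted p = 0.199) nor Gata4 (adjusted p = 0.188) was called. Both calls were also lost with the hybridization covariate (adjusted p = 0.0909 and 0.112).

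Matrix genes of connective tissue formed the list with the most calls. The smaller epicardial list below had a larger share, 5 of 18. Of 40 fibrous matrix and proteoglycan genes tested, 6 rose and none fell, with a median of 0.18. The median was 0.38 with the hybridization covariate and 0.05 with the 3′ to 5′ covariate. Of the 6 calls, only that of Dpt was kept with the 3′ to 5′ covariate. Dpt, dermatopontin, which binds collagen fibrils, read 5.11, 5.37 and 5.44, then 7.49, 7.50 and 7.69, a 4.75-fold rise (2.25 ± 0.30, adjusted p = 0.000131). The gap between the stages was far wider than the spread within either. Col6a1, a chain of collagen VI, read 7.74, 7.37 and 7.38, then 8.61, 8.47 and 8.66 (1.08 ± 0.19, adjusted p = 0.00423). Col1a1, a chain of collagen I, read 9.18, 8.67 and 8.80, then 9.78, 9.87 and 10.24 (1.09 ± 0.21, adjusted p = 0.00776), although its other probe set differed by only 0.23 and the 3′ to 5′ covariate left 0.69 (adjusted p = 0.473).

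The remaining calls of this list were smaller or less certain. Ogn, the small proteoglycan osteoglycin, rose by 1.17 ± 0.28 (adjusted p = 0.0338), Tnxb, tenascin X, by 0.80 ± 0.21 (adjusted p = 0.0497) and Col16a1 by 0.53 ± 0.13 (adjusted p = 0.038). Tnxb was dim, with means of 4.04 at E12.5 and 4.84 at E13.5. Fmod, fibromodulin, had a value of 1.09 and did not pass (adjusted p = 0.123). Fn1, fibronectin, had the lowest value of the list, with 10.46, 10.62 and 10.62, then 9.93, 9.84 and 9.11 (-0.94 ± 0.31, adjusted p = 0.112). Matrix genes outside the list also rose. Ltbp2, which binds to microfibrils, read 4.13, 4.32 and 3.47, then 5.47, 5.33 and 5.93 (1.60 ± 0.31, adjusted p = 0.0104). Thbs2, a thrombospondin that modulates cell and matrix contact, read 5.96, 5.65 and 5.75, then 7.05, 7.04 and 7.40 (1.37 ± 0.24, adjusted p = 0.0039). A further Thbs2 probe set gave 1.44, and a dimmer one gave 0.74 and did not pass the test (adjusted p = 0.324).

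The valve cushions, which shape the valves from a jelly-like matrix, gave 1 call. Of 24 genes tested, 1 fell and none rose, with a median of -0.26. Hapln1, a link protein that holds hyaluronan to versican in the cushion jelly, read 8.32, 8.01 and 8.17, then 7.02, 7.19 and 6.84 (-1.15 ± 0.23, adjusted p = 0.0125). Its other probe sets gave -1.17, -1.36 and -1.99, each past the test. Has2, the hyaluronan synthase, differed by -0.73 and Vcan, versican, by -0.51, and Acan, aggrecan, by 0.61, none past the test. Hapln1 was also the 1 called gene of 12 cartilage genes tested (median -0.08).

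Macrophage genes rose where they changed. Of 26 macrophage and leukocyte genes tested, 4 rose and none fell, 23 had positive differences and the median was 0.23. F13a1, the A subunit of clotting factor XIII and a marker of resident tissue macrophages, read 5.99, 5.97 and 5.86, then 7.22, 7.07 and 7.88, a 2.73-fold rise (1.45 ± 0.19, adjusted p = 0.000131). Csf1r, the receptor for macrophage growth factors, read 7.14, 7.03 and 7.06, then 7.81, 7.84 and 8.48 (0.96 ± 0.19, adjusted p = 0.0107). Adgre1, which encodes F4/80, rose by 0.68 ± 0.17 (adjusted p = 0.0367) and the scavenger receptor Stab1 by 0.63 ± 0.16 (adjusted p = 0.0388).

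The E13.5 mixed array was the highest for all 4 macrophage genes. Without it F13a1 still rose by 1.20 (adjusted p = 0.00318). The calls of Adgre1 and Stab1 were lost in 5 of the 6 fits that leave out 1 array, and the dimmer probe sets of Csf1r gave 0.23 and 0.29. The summed level of the whole list was 10.1 in all 3 E12.5 arrays and lay between 10.4 and 10.8 at E13.5. The defining markers Aif1 and Ptprc stayed at background, between 2.47 and 2.99 in all 6 arrays. Gas6, a ligand of the receptors by which phagocytes take up dying cells, rose by 0.96 ± 0.16 (adjusted p = 0.00292), from 7.59, 7.65 and 7.69 to 8.62, 8.64 and 8.53. Gas6 was not in the list and was chosen after its values were seen. None of 8 platelet and megakaryocyte genes tested was called (median 0.15).

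Of 3 embryonic globin genes tested, 2 fell, Hbb-bh1 and Hba-x, and Hbb-y did not pass the test. The promoters of Hba-x, the gene of the embryonic alpha-like chain, and of Hbb-y, the gene of the embryonic beta-like chain epsilon-y, are shown because primitive red cells make both chains. Each is 300 bases across the transcription start, read 5′ to 3′ on the gene's own strand, from RefSeq build GRCm38.p6: chr11:32276350-32276649 (+) for Hba-x and chr7:103853158-103853457 (-) for Hbb-y. Capitals mark 3 motifs typical of red cell promoters, searched on both strands. The motif of the GATA factors was searched as GATAA. The box bound by the factors of the Klf family was searched as CACCC. The box of the factor NF-Y was searched as CCAAT. None of the marked runs overlap.
Hba-x: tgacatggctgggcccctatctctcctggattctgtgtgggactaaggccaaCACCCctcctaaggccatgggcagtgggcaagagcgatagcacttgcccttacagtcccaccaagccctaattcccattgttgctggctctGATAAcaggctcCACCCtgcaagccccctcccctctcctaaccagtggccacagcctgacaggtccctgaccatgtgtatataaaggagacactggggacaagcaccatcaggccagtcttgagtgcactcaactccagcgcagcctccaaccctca
Hbb-y: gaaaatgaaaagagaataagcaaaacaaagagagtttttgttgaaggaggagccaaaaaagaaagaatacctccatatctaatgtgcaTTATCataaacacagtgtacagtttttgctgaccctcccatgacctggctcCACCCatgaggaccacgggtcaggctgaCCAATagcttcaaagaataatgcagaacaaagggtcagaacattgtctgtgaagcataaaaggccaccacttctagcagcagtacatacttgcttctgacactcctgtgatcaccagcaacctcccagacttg

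Hba-x has 1 match to the GATA motif, 2 to the Klf box and none to the NF-Y box in this window, and Hbb-y has 1 of each. Of 32851 promoters of the same length, 25.4% hold the GATA letters, 57.5% the Klf letters and 37.4% the NF-Y letters, so matches of this kind are common.

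Hbb-bh1, an embryonic beta-like chain used early, read 10.92, 10.94 and 11.16 at E12.5 and 9.43, 9.43 and 7.47 at E13.5. It fell 4.7-fold (-2.23 ± 0.30, adjusted p = 0.000131), and the E13.5 mixed array was far lower than the other E13.5 arrays. Without that array the difference was -1.58 (adjusted p = 0.000551), and the other probe sets gave -2.87 and -1.93. Hba-x read 9.16, 9.78 and 9.56, then 8.19, 8.70 and 6.77, a 3.06-fold fall (-1.61 ± 0.31, adjusted p = 0.00776). Without the E13.5 mixed array it differed by -1.05 and did not pass (adjusted p = 0.0954).

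Hbb-y read 13.76, 13.83 and 13.84, then 13.77, 13.73 and 13.38 (-0.18 ± 0.37, adjusted p = 0.877). Its less bright probe set gave -0.97 (adjusted p = 0.226), and the difference between Hba-x and Hbb-y was not tested. Globin genes share sequence, and their probe sets may detect each other's RNA. Of 14 adult globin and erythroid genes tested none was called, and the median was -0.06. Ahsp, the chaperone of alpha globin, read 6.52, 6.82 and 6.72, then 7.92, 8.06 and 6.92 (0.95, adjusted p = 0.512), and Alas2, the first enzyme of heme synthesis in red cells, read 5.15, 5.48 and 5.23, then 6.05, 6.31 and 5.00 (0.50, adjusted p = 0.603). For both, the E13.5 mixed array stayed near the E12.5 level. The summed level of this list lay between 10.3 and 10.4 at E12.5 and between 10.0 and 10.6 at E13.5.

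Epicardial genes fell where they changed. Of 18 epicardium and mesothelium genes tested, 5 fell and none rose, 15 had negative differences, and the median was -0.62. Upk3b, a uroplakin of mesothelium, read 6.26, 6.79 and 6.44, then 4.59, 5.11 and 4.66, a 3.27-fold fall (-1.71 ± 0.44, adjusted p = 0.0442). Bnc1, the zinc-finger factor basonuclin 1, read 5.57, 6.45 and 6.25, then 4.46, 4.84 and 4.44 (-1.51 ± 0.33, adjusted p = 0.0209). For Upk3b the gap between the stages was wider than the spread within either, and for Bnc1 it was narrower than the spread of E12.5.

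The other epicardial genes that fell were Efemp1 and the keratins Krt8 and Krt18, which form the filaments of simple epithelia. Efemp1, fibulin 3, differed by -1.23 ± 0.31 (adjusted p = 0.0415). Krt8 differed by -0.86 ± 0.19 (adjusted p = 0.0247) and Krt18 by -0.75 ± 0.19 (adjusted p = 0.0451). Efemp1 was dim, with means of 4.77 at E12.5 and 3.54 at E13.5. Its mean was below 5 at every embryonic stage, and it was tested only through its adult levels (7.08 in young adults). Krt8 read 6.83, 6.27 and 6.29, then 5.71, 5.68 and 5.44, and it was called with each of the quality covariates but in none of the 6 fits without 1 array. The other 4 epicardial calls were lost with either covariate. With the hybridization covariate the adjusted p was 0.154 for Upk3b, 0.128 for Bnc1, 0.228 for Efemp1 and 0.0922 for Krt18, and with the 3′ to 5′ covariate Upk3b was at -0.84. The median of the list was -0.41 and -0.45 with these covariates. The defining transcription factors had negative values that did not pass the test: Wt1 differed by -0.39 (adjusted p = 0.535), Tbx18 by -0.91 (adjusted p = 0.194) and Tcf21 by -0.12. Aldh1a2, which makes retinoic acid in the epicardium, differed by -0.81 (adjusted p = 0.192). Without the E12.5 male array, Upk3b (adjusted p = 0.305) and Bnc1 (adjusted p = 0.201) were no longer called. Over the 6 such fits, Upk3b was called in 1 and Bnc1 in 2. Itga4, the integrin subunit by which epicardial cells hold to the heart surface, was not in the list and was chosen after its values were seen. It read 6.86, 6.56 and 6.67, then 5.56, 5.87 and 5.64. Itga4 fell by 1.01 ± 0.18 on the log2 scale (adjusted p = 0.00566) and was called whichever array was left out. It was not called with the 3′ to 5′ covariate (-1.06, adjusted p = 0.0691).

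**Figure D4:**
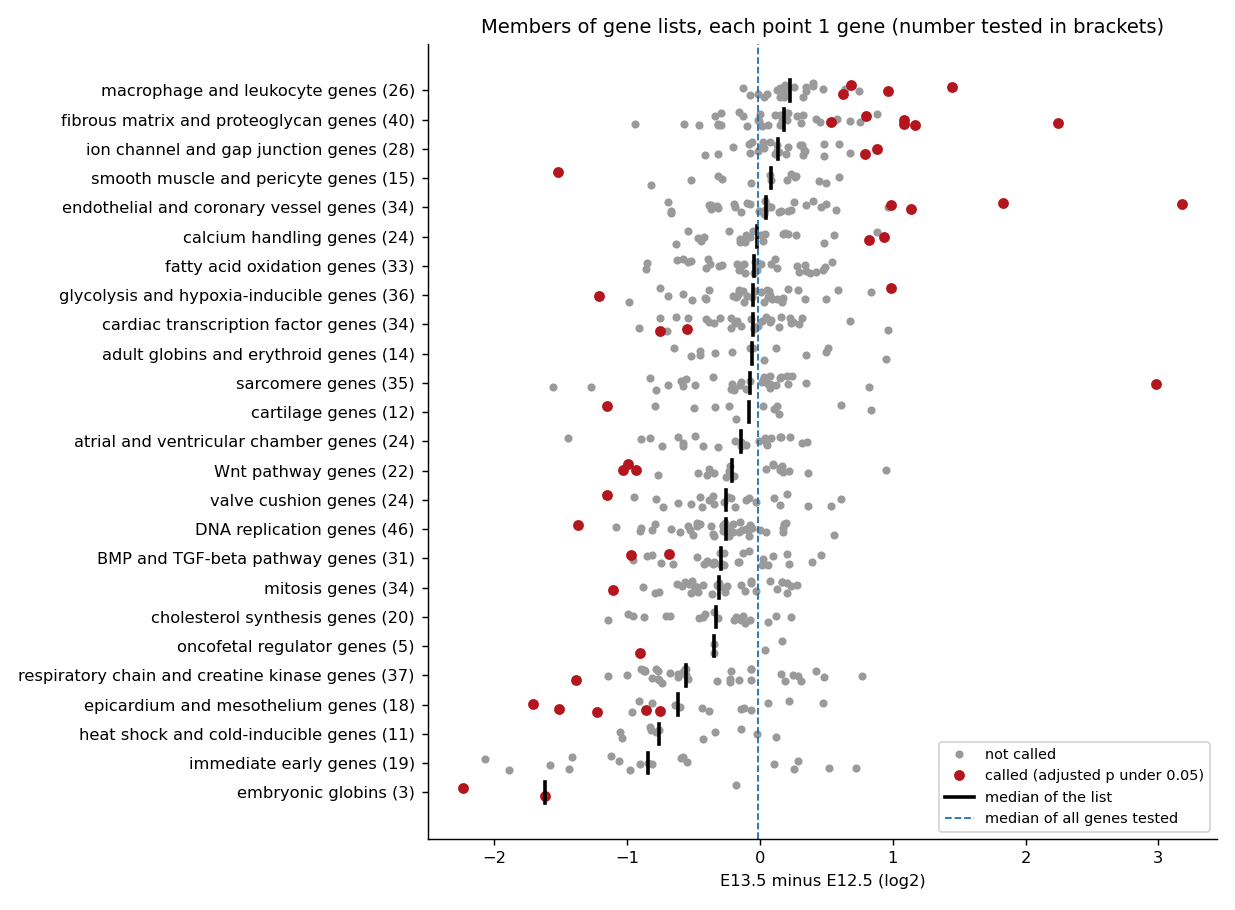
Log2 difference E13.5 minus E12.5 of the tested members of 25 gene lists, ordered by the list median (black bar). Each point is 1 gene, red where called, and the dashed line is the median of all 11317 genes tested. Calls lie to the right in the macrophage and matrix lists and to the left in the epicardial and globin lists.

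Among 15 smooth muscle and pericyte genes 1 fell and none rose (median 0.08). Tagln, transgelin, an actin-binding protein that embryonic heart muscle also makes for a time, read 7.56, 7.99 and 7.71, then 6.52, 6.57 and 5.60 (-1.52 ± 0.33, adjusted p = 0.0223). The smooth muscle myosin Myh11 had a value of 0.60 and the smooth muscle actin Acta2 of 0.07, neither past the test.

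The largest falls outside the lists were in genes of mixed function. Cd24a, a small sialoprotein of immature cells, read 7.64, 8.15 and 7.96, then 6.13, 6.17 and 5.51 (-1.98 ± 0.40, adjusted p = 0.0122). Penk, the precursor of the enkephalins, read 6.01, 5.42 and 5.64, then 4.41, 4.23 and 3.66 (-1.58 ± 0.32, adjusted p = 0.0113). Itm2a, a membrane protein of precursor cells, fell by 1.63 ± 0.37 on the log2 scale (adjusted p = 0.0264). Jpt2 fell by 1.59 ± 0.36 (adjusted p = 0.0244) and Mob1b, a cofactor of Hippo pathway kinases, by 1.42 ± 0.27 (adjusted p = 0.00734). Jpt2 was at -0.89 with the hybridization covariate (adjusted p = 0.179), and with the 3′ to 5′ covariate Itm2a was at -0.93 (adjusted p = 0.768), Cd24a at -1.31 (adjusted p = 0.566) and Mob1b at -0.89 (adjusted p = 0.463).

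For some genes 1 probe set alone showed the change. Med14, a subunit of the Mediator complex, fell by 1.68 ± 0.40 on the log2 scale (adjusted p = 0.0333), while its dimmer probe sets gave between -0.30 and -0.04, and the hybridization covariate left -0.88 (adjusted p = 0.239). Mfsd13a rose by 1.65 ± 0.29 (adjusted p = 0.00362), from 4.16, 3.57 and 3.47 to 5.10, 5.18 and 5.87, and its other probe sets gave 0.07 and 0.05. Tmem255a read 7.26, 7.02 and 6.97, then 8.14, 8.34 and 9.36 (1.53 ± 0.34, adjusted p = 0.024), and its other probe sets gave between 0.15 and 0.34. Tmem255a lost its call with the hybridization covariate (adjusted p = 0.206). The transcript D130051D11Rik, whose function is not known, read 5.13, 4.95 and 5.02, then 6.68, 6.62 and 6.50 (1.57 ± 0.22, adjusted p = 0.000294).

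Among genes of energy metabolism, Ndufa4 and Ldha were called lower and Ndrg1 higher. Over all 11317 genes tested, 0.99% were called lower and 1.18% higher, and 5875 had negative differences. A single call in a list is therefore no result about the list. Of 37 respiratory chain and creatine kinase genes 1 fell and none rose, although 29 had negative differences and the median was -0.56. Ndufa4, a subunit of the respiratory chain, read 8.41, 9.35 and 9.13, then 7.74, 7.76 and 7.24 (-1.39 ± 0.35, adjusted p = 0.0416). With the hybridization covariate the median of this list was 0.05, so that its sign turned, and Ndufa4 was at -0.78 (adjusted p = 0.36). Of 36 glycolysis and hypoxia-inducible genes (median -0.05), Ndrg1, which hypoxia induces, rose by 0.99 ± 0.19 (adjusted p = 0.00769, with its other probe sets between -0.04 and 1.0), and Ldha, lactate dehydrogenase A, fell by 1.21 ± 0.29 (adjusted p = 0.0347). Ldha read 8.68, 9.45 and 9.31, then 8.03, 8.05 and 7.72, and with the 3′ to 5′ covariate it was at -0.65 (adjusted p = 0.8). None of 33 fatty acid oxidation genes was called (median -0.04).

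Among genes of proliferation, Mcm6 and Nusap1 were called lower. Of 46 DNA replication genes 1 fell, 39 had negative differences and the median was -0.26. Over all 11317 genes tested, 0.99% were called lower and 5875 had negative differences. A single call in a list of this size is therefore no result about the list. Mcm6, a subunit of the replicative helicase, read 8.30, 8.88 and 8.75, then 7.47, 7.46 and 6.89 (-1.37 ± 0.33, adjusted p = 0.0345). Of 34 mitosis genes 1 fell, Nusap1, a spindle protein (-1.10 ± 0.28, adjusted p = 0.0445), and the median was -0.31. With the hybridization covariate the median was -0.17 for replication and -0.02 for mitosis, Mcm6 was at -0.75 (adjusted p = 0.27) and Nusap1 at -0.68 (adjusted p = 0.373). None of 23 cyclin D, CDK inhibitor and growth regulator genes was called (median -0.12). Hmga2, a chromatin protein of fetal tissue, fell by 0.90 ± 0.23 on the log2 scale (adjusted p = 0.0451), the 1 call among 5 oncofetal regulator genes (median -0.34), and it was lost with any 1 array left out.

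In the lists of BMP and Wnt signalling every call was a fall. Of 31 BMP and TGF-beta pathway genes 2 fell (median -0.29). Id1, a target of BMP signals that blocks differentiation factors, read 8.41, 8.65 and 8.43, then 7.67, 7.72 and 7.19 (-0.97 ± 0.25, adjusted p = 0.0461), and the ligand Bmp5 fell by 0.68 ± 0.16 (adjusted p = 0.0319). Of 22 Wnt pathway genes 3 fell (median -0.21). The ligand Wnt4 read 6.07, 5.97 and 6.07, then 5.21, 5.19 and 4.90 (-0.93 ± 0.19, adjusted p = 0.0136). Rspo3, which enhances Wnt signals, fell by 1.03 ± 0.24 on the log2 scale (adjusted p = 0.0286), and the receptor Fzd1 by 0.99 ± 0.25 (adjusted p = 0.0428). With the hybridization covariate the median was -0.11 for the BMP and TGF-beta list and -0.01 for the Wnt list. The calls of Id1 (adjusted p = 0.396), Bmp5 (0.229), Rspo3 (0.183) and Fzd1 (0.343) were then lost, and that of Wnt4 was kept (0.0491).

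No gene was called in 3 further pathway lists. These were 18 Notch pathway genes (median -0.08), 12 retinoic acid pathway genes (median -0.07) and 35 growth factor, endothelin and semaphorin genes (median -0.10). Rarb, a retinoic acid receptor and target, differed by -0.82 (adjusted p = 0.0603). Sema3c, a guidance signal of the outflow tract, read 8.0, 8.05 and 7.98, then 6.96, 6.97 and 6.59 (-1.17 ± 0.33, adjusted p = 0.0643), and the test was missed. Its stages did not overlap, which held for 43.9% of all genes tested (24.9% lower at E13.5).

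The list furthest from 0 among those with no call was that of immediate early genes, which cells switch on within minutes of a stimulus and which can also respond to dissection. Its 19 tested members had a median of -0.84. Fos read 11.71, 11.83 and 11.76 at E12.5 and 9.14, 9.17 and 11.33 at E13.5 (-1.89 ± 0.95, adjusted p = 0.344), and Fosb read 6.85, 6.58 and 5.91, then 3.62, 3.89 and 5.62 (-2.07 ± 0.56, adjusted p = 0.0563). The E13.5 mixed array thus stayed near the E12.5 level. The 11 heat shock and cold-inducible genes had a median of -0.76, with Hsph1 at -1.05 (adjusted p = 0.192) and Hspa8 at 0.12 (adjusted p = 0.68). With the hybridization covariate the medians of these lists were -1.24 and -0.25.

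Other lists without a call were 20 cholesterol synthesis genes (median -0.33), 13 imprinted growth genes (median -0.35) and 19 antigen presentation and interferon genes (median 0.14). Idi1, an enzyme of the sterol pathway, had -1.14 (adjusted p = 0.0536), and Igf2, the fetal growth factor, had -0.60 (adjusted p = 0.264). Markers of tissues that might adhere to the heart gave no call either: 10 neural crest, glial and neuronal genes had a median of 0.12, 4 liver genes of 0.30, 3 lung and other epithelial genes of 0.03 and 2 skeletal muscle genes of -0.43, and none of the thymus and pharyngeal genes was bright enough to be tested. The 3 Y chromosome and X inactivation genes, which follow the sex of the hearts, had a median of -0.56.

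The step was set against its neighbours. From E11.5 to E12.5, 23 genes were called (0.203% of those tested), and from E13.5 to E14.5, 13 (0.115%). Among the 9 daily steps, E10.5 to E11.5 had 487 calls and E18.5 to E19.5 had 330, so the step studied here ranked behind these. These steps share arrays with it, E12.5 with the step before and E13.5 with the step after. A test of the difference from the step before called 1 gene (0.00884%), the erythroid gene Hemgn, and 1508 genes had an unadjusted p under 0.05. The test of the difference from the step after called none (0%), with 539 at an unadjusted p under 0.05. Apart from Hemgn, which was already near background at E12.5, no gene was shown to move differently here than a day earlier or later. This holds whatever the counts of calls per step.

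The courses of the leading genes differed in shape. Fabp4 went from 3.17 at E10.5 to 6.0 at E12.5, then to 9.18 at E13.5, and reached 12.03 at E19.5, and Myom2 at the same stages read 2.60, 3.81, 6.79 and 11.85. Asb11 stayed between 3.59 and 3.88 up to E12.5 and then read 5.26 at E13.5 and 7.60 at E18.5. F13a1 and Thbs2 reached a plateau at E13.5: F13a1 lay between 6.99 and 7.77 from E13.5 to E19.5 and was 9.78 in young adults. Tmem255a was 8.61 at E13.5 and 4.35 in young adults. Hbb-bh1 was 12.99 at E10.5 and 11.01 at E12.5, dropped to 8.78 at E13.5 and was 3.97 at E15.5. Apela read 6.34 at E12.5, then 4.84 and 3.60 on the following days. Upk3b went from 6.50 to 4.79 between E12.5 and E13.5, was 4.73 at E19.5 and 5.74 in young adults.

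**Figure D5:**
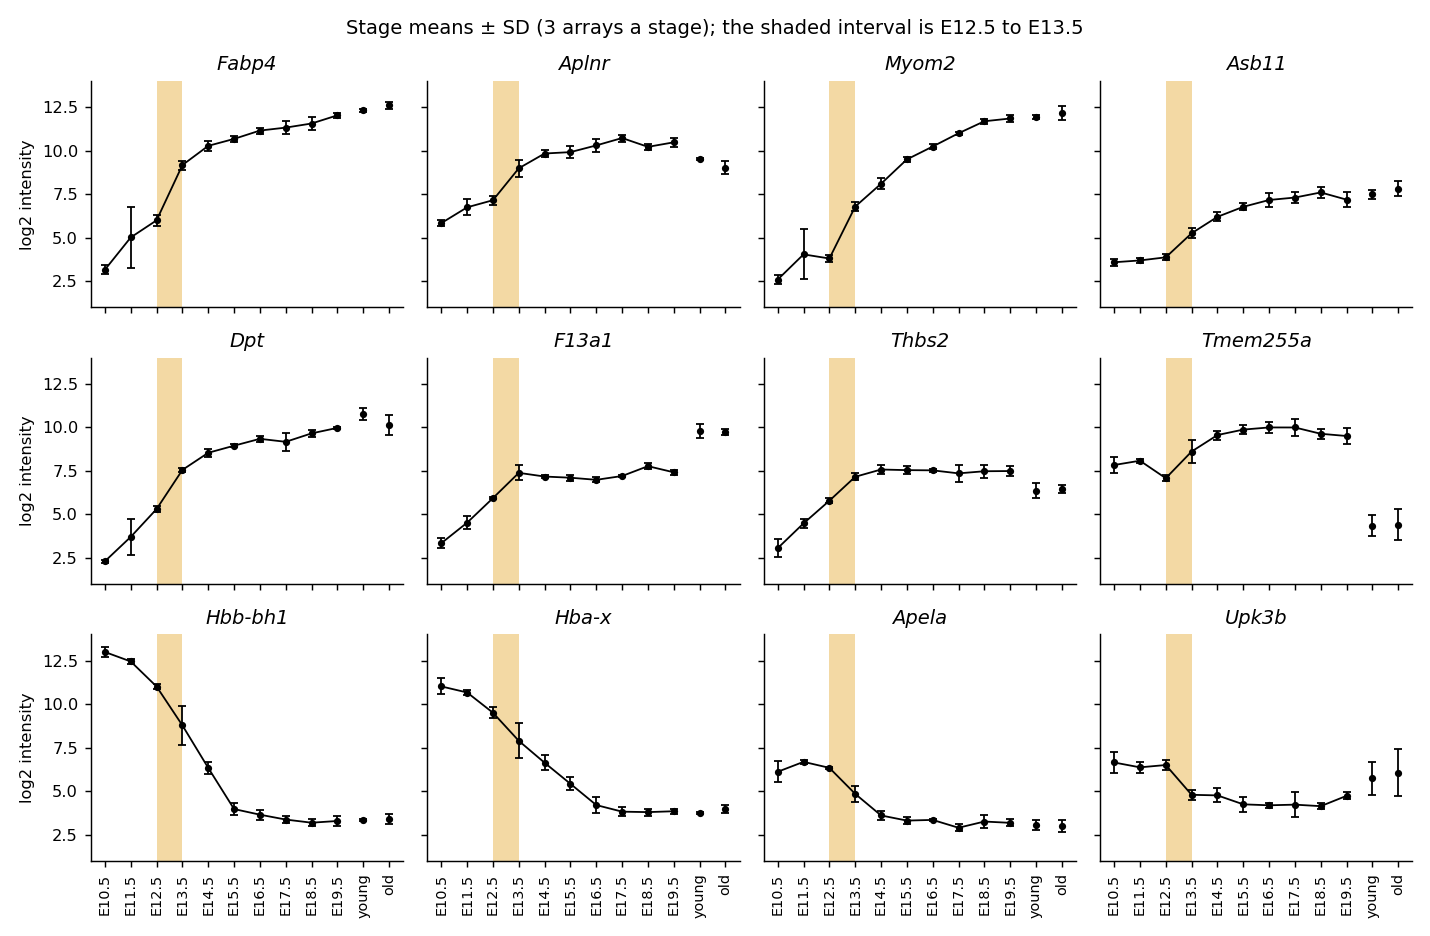
Stage means ± SD of 3 arrays (log2 intensity) for 12 genes over the 12 stages; the shaded band is the step from E12.5 to E13.5 and the last points are young and old adults. Muscle and vessel genes such as Myom2 and Fabp4 go on rising after E13.5, F13a1 and Thbs2 level off, and the embryonic globins Hbb-bh1 and Hba-x fall to near background by E17.5.

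Arrays that the step did not use gave the course of its genes before and after. From E10.5 to E11.5 the mean rose for 128 of the 133 higher genes and for 8 of the 112 lower genes, against 5282 of all 11317. The hybridization controls also shifted in that interval: they lay between 9.68 and 10.3 at E10.5 and between 10.4 and 10.6 at E11.5. The Gapdh 3′ to 5′ difference lay between 2.19 and 3.95 at E10.5 and between 3.74 and 4.68 at E11.5. From E14.5 to E19.5 the mean rose for 83 of the higher and 43 of the lower genes, against 4827 of all. From E14.5 to young adults it rose for 64 of the higher and 53 of the lower genes, against 4775 of all. Of the 20 genes called whichever array was left out, all 15 higher ones rose from E10.5 to E11.5, 12 from E14.5 to E19.5 and 8 from E14.5 to young adults. Of the 5 lower ones, 2 rose from E10.5 to E11.5 and none in the later intervals.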

How the data were processed

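RNA from whole hearts was measured on 1-colour Affymetrix mouse genome arrays. The authors deposited log2 intensities made by robust multi-array average (RMA); the submitters' notes name Affymetrix Expression Console and Partek 6.6. Arrays give no read depth, and 3 arrays a stage limit the precision. Values were used as deposited, without offset. limma 3.58.1 in R 4.3.3 fitted 12 stage means to all 36 arrays, with Benjamini-Hochberg adjustment over 45101 probe sets. Each of 20701 genes was read from its brightest probe set and tested where any of the 12 stage means exceeded 5, after the fit; called means adjusted p under 0.05. The test was checked on simulated data with independent noise for each probe set. The simulation held no array-wide shift, so it cannot speak to the quality measures that moved with the stage. The text names the 12 called genes highest and the 12 lowest in log2 difference with separate stages and a mean over 5 at the higher of E12.5 and E13.5, up to 6 called members per list, markers and genes past the study's threshold; other names were chosen after seeing values. Members and lists were chosen with earlier results of these data known. RefSeq (GRCm38.p6) matched 18342 gene IDs, and 15 of 947 list entries were not found on the array. The E12.5 and E13.5 sex labels do not pair samples. Errors are limma SEs. The methods give pups as the biological replicates of each stage. All 3 E12.5 arrays held transcripts of both sexes, so whether they come from separate animals could not be checked. No column of sample values was left unused.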

Additional observations from a re-analysis of the deposited data

Results flagged for a closer look

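Hemgn, the erythroid gene hemogen, changed differently in this step and in the step before. It differed by 0.03 on the log2 scale from E12.5 to E13.5 but fell by 3.79 from E11.5 to E12.5 (adjusted p = 2.18e-10), so that the difference between the steps was 3.82 ± 0.47 (SE, adjusted p = 0.000127, limma, 3 arrays a stage). The 3 arrays of E11.5 lay at 6.29, 6.59 and 5.14, those of E12.5 at 2.31, 2.26 and 2.08, and those of E13.5 at 2.05, 2.09 and 2.59. The change therefore precedes the interval from E12.5 to E13.5. At E12.5 Hemgn was already near the background of the array, so a further fall could not have been seen in this step.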

How the results depend on the processing

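The stage means rest on 3 arrays each, and calls moved with the choice of arrays. All 245 genes called kept their sign under the 17 refitted settings. Their arrays do not overlap between the stages, so leaving out or weighting arrays could not turn a sign. Among the other settings, only the covariates and normalizations could change the difference. Without 1 array the counts ranged from 26 to 353 in all, from 20 to 167 higher and from 6 to 186 lower. Totals with higher and lower genes were 1242 (479 and 763) with only the 6 arrays, 3739 (1720 and 2019) with array weights, 506 (243 and 263) with the filter before the model, 66 (50 and 16) with the hybridization covariate, and, added after seeing the data, 13 (8 and 5) with the 3′ to 5′ covariate and 12 (10 and 2) without the E12.5 male and E13.5 mixed arrays together. The largest-variance probe sets gave 192 lower genes. With the replicate block by sex label the count was 1335 (428 and 907) on 6 arrays and 299 on 30; the labels do not pair the samples (correlations of deviations -0.38, 0.40 and -0.16). The study's threshold, passed by 0 genes, was passed by 3 with array weights, 3 with the block on 30 arrays, 1 with median centring and 1 with an intensity trend. The difference from the step before gave 2 genes with the hybridization covariate, the trend and median centring, and 1 to 3 without 1 array. Of 55 named genes, 21 kept their call with the hybridization covariate, 10 with the 3′ to 5′ covariate, 40 after quantile normalization and 50 after median centring. None reversed. The cause of these shifts was not tested.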

Other observations

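Some called genes outside the lists were chosen after their values were seen. The transcription factors Nfix (1.0 ± 0.19, adjusted p = 0.00822) and Nfia (0.91 ± 0.23, adjusted p = 0.0393), members of the nuclear factor I family, rose: Nfix read 8.54, 8.32 and 8.47 at E12.5 and 9.39, 9.34 and 9.59 at E13.5. The genes that fell included Rplp0, a ribosomal stalk protein (10.06, 10.89 and 10.73, then 9.46, 9.41 and 9.23), which fell by 1.19 ± 0.25 on the log2 scale (adjusted p = 0.0165), the ribosomal genes Rpl10a (-0.62) and Rps3a1 (-0.96), the poly(A)-binding gene Pabpc1 (-0.62) and the translation factors Eif5a (-1.04), Eif3m (-1.0) and Gspt1 (-1.33). For Rplp0 the E12.5 female array lay closest to E13.5. Ribosomal and translation genes were not examined as a list, so the share of them that fell was not counted. None of the genes in this paragraph was called with the 3′ to 5′ covariate or in all 6 fits that leave out 1 array. Enpp2, the enzyme autotaxin, read 3.94, 3.80 and 3.99, then 5.05, 5.00 and 5.02 (1.11 ± 0.25, adjusted p = 0.0247).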
